A study of Mus musculus with 3 samples.

Results

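The genes described here build, cut, cap, cross-link and pull on actin filaments: 59 listed genes of actin polymerisation and actomyosin contraction, taken by gene symbol and sorted by role. Of these, 55 had a probe set with that symbol in the platform's annotation, out of 19505 genes named there. Actg1, Actr2, Arpc3 and Fmnl3 were not found by symbol and carry no value. By role, the 55 comprised 1 actin, 6 subunits of the Arp2/3 complex, 4 genes of the WASP family, 5 formins, 8 genes of cofilin, profilin and monomer turnover, 7 of capping, severing and barbed ends, 7 of myosin II, 7 unconventional myosins, 4 cross-linkers, 3 adhesion-linked genes and 3 ERM genes.

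Plasmacytoid dendritic cells were differentiated from wild-type male BALB/c bone marrow (mice aged 4 to 5 weeks) over 6 to 9 days in medium with Flt3 ligand (100 ng/mL); CpG oligodeoxynucleotides matured the cells, which were then sorted by flow cytometry. The study sought the mechanism by which both compounds slow the migration of these cells. One array was hybridised with RNA of control cells, 1 with RNA of cells given astragaloside IV, a saponin from Astragalus root, and 1 with RNA of cells given oxymatrine, a quinolizidine alkaloid from Sophora root. The labels give 12 h for the compounds and a further 1 h with CCL21, the chemokine ligand of CCR7. They state neither doses, nor the number of mice, nor whether the control received CCL21 or a vehicle, so the compound and the CCL21 step cannot be told apart in a difference from control. With 1 array per group there are no replicates, no test was possible, and every difference below compares single arrays.

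A cell crawls by pushing its front with branched actin networks and squeezing its rear with myosin II. The Arp2/3 complex, switched on by WASP and WAVE proteins, starts filament branches, while formins extend unbranched filaments. Profilin and thymosin beta-4 hold actin monomers, cofilin and coronins take old filaments apart, and capping proteins close filament ends. Filamins, plastin and alpha-actinins tie filaments together, talin and vinculin fasten them to integrins, and ezrin, radixin and moesin fasten them to the membrane. Dendritic cells depend on this machinery to move through tissue towards CCR7 ligands, and maturation remodels it.

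Many actin genes are classical targets of the serum response factor SRF, whose cofactors sense free actin monomers and which binds the CArG box. RefSeq windows of 300 bases, from 250 before to 50 after each start site (build GRCm38.p6), were matched to 56 of the 59 listed genes; Actb, Coro1b and Diaph1 were not matched. The CArG box, which is its own reverse complement in pattern, stood in a window of 6 of the 56 genes, or 10.7%, against 488 of all 27025 genes with a window, or 1.81%, and 1.66% of the 8725 whose array level was above background. The 6 stretches are shown because they are the matches among these genes, each read 5′ to 3′ on the gene's strand with the CArG box in capitals and up to 20 bases on each side; that of Arpc4 begins at the window's edge.
Actg1: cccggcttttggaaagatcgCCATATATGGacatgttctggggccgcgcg
Arpc4: CCTAATTTGGtgcccaacctgaggtcgggc
Myl6: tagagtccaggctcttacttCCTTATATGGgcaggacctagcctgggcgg
Myl9: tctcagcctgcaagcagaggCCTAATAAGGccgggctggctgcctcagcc
Myo1e: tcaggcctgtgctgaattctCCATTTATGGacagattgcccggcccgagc
Vcl: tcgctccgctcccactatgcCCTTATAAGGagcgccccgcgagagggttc
These lie at chr11:120348556-120348605 on the minus strand for Actg1, chr6:113377863-113377892 on the plus strand for Arpc4 and chr10:128493030-128493079 on the minus strand for Myl6. Those of Myl9, Myo1e and Vcl lie on the plus strand at chr2:156775283-156775332, chr9:70207298-70207347 and chr14:20929151-20929200. The box starts 90 bases before the start site in Actg1, 250 in Arpc4, 50 in Myl6, 161 in Myl9, 32 in Myo1e and 227 in Vcl. Of motifs searched on both strands in the same windows, GGGCGG was held by 45 of the 56 genes (80.4%, against 66.1% of genes above background), GGAAGT by 29 (51.8% against 33.3%), CCAAT by 19 (33.9% against 43.4%) and TATAAA by 1, Myh9 (1.79% against 9.50%). A match describes the letters of a window and does not show that a factor binds there.

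Values are deposited log2 expression values, and a log2 difference of 0.585 is a 1.5-fold difference. The background level, 5.28, is the value under which 95 percent of 1412 odorant and pheromone receptor genes lay, genes that leukocytes normally do not express; a gene counted as above background if the mean of its 3 values was at least that high. All 55 genes passed, among 10671 of the 19505 named genes, so passing alone says little about a single marker. Exactly equal values in several arrays arise from the summary of probes by median polish over so few arrays and do not show that a transcript was unchanged. Pearson's r between arrays was 0.997 to 0.998 over the named probe sets. The labelled cell type carried its markers: 14 of 15 measured markers of plasmacytoid dendritic cells were above background, with Tcf4, the transcription factor of the lineage, at 14.37 in each array and Siglech, a surface lectin of these cells, at 8.99, 8.99 and 9.02 in the control, astragaloside IV and oxymatrine arrays. Pacsin1 was below background. Of the markers of other cells, 7 of 7 of monocytes and macrophages, 5 of 7 and 6 of 8 of the 2 classes of conventional dendritic cells, 3 of 5 of B cells, 3 of 8 of T and NK cells, 3 of 8 of fibroblasts and endothelium, 2 of 9 of neutrophils and 0 of 2 of erythroid cells passed. The CD3 genes Cd3d, Cd3e and Cd3g were all below background. Monocyte and macrophage markers were well above it, with Lyz2 at 13.88 in each array, Adgre1 at 14.12, 13.98 and 14.12 and Csf1r at 12.86, 12.86 and 12.83. Itgam, listed for conventional dendritic cells of class 2, was at 14.69, 14.61 and 14.77. The markers therefore do not show how pure the sorted cells were.

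Transcripts of the actin machinery differed little between the arrays. Myo9a alone reached 1.5-fold with astragaloside IV and Mylk alone with oxymatrine, each lower than control. The count of 1 of 55 genes, in each comparison with control, stands beside 2.13% of all genes above background with astragaloside IV and 3.31% with oxymatrine, so it lies near the background share in both. Counted on the lower side alone, 1.28% and 2.01% of all genes were that far below control, and on the higher side, where 0 of the 55 genes stood, 0.843% and 1.30%. At 2-fold, Myo9a remained with astragaloside IV, where 0.197% of all genes were that far apart, and 0 of 55 genes did with oxymatrine, where 0.281% were. The median difference was 0 in both comparisons, for the 55 genes as for all genes. In these bulk samples fewer cells of a type and less RNA per cell cannot be told apart.

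**Figure D1:**
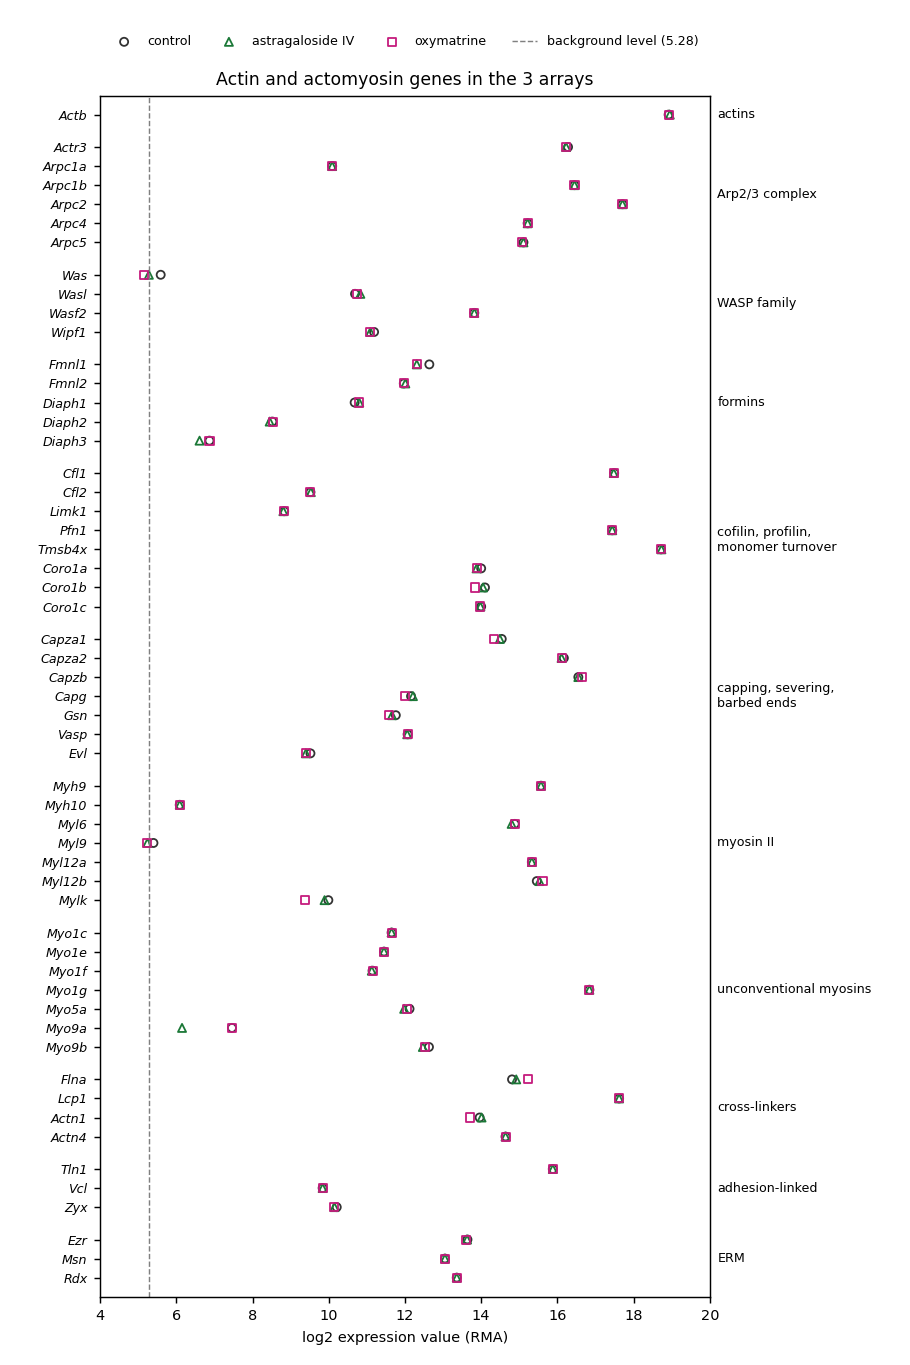
Log2 expression value (x axis) of each of the 55 actin and actomyosin genes (rows, by role) in the control (circle), astragaloside IV (triangle) and oxymatrine (square) array, 1 array per group; the dashed line is the background level of 5.28. The 3 symbols overlap for most genes and separate for some, among them Myo9a, Mylk, Flna, Fmnl1, Was and Actn1. Brightness depends on the probes, so rows are not ranked against each other.

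Counted by any amount, 25 genes were lower with astragaloside IV (40.8% of all genes), 12 higher (31.4%) and 18 equal (27.7%). With oxymatrine 22 were lower (46.0%), 9 higher (29.7%) and 24 equal (24.4%). Differences within 0.05 on the log2 scale made up 32 of 55 genes with astragaloside IV (46.4% of all genes) and 33 of 55 with oxymatrine (41.3% of all genes). Beyond that margin, 18 genes were lower (30.8% of all genes) and 5 higher (22.8%) with astragaloside IV, and 17 lower (36.5%) and 5 higher (22.2%) with oxymatrine. The side of small differences depended on scaling. After quantile normalisation 14 were lower (27.2% of all genes) and 7 higher (26.4%) with astragaloside IV, and 13 lower (31.3%) and 13 higher (38.1%) with oxymatrine, so all genes shifted towards the higher side as well. After lowess 15 were lower (28.7%) and 7 higher (24.5%) with astragaloside IV, and 13 lower (32.3%) and 5 higher (26.0%) with oxymatrine. Centring on the median gave 18 lower (30.8%) and 5 higher (22.8%), and 19 lower (41.5%) and 4 higher (19.0%).

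**Figure D2:**
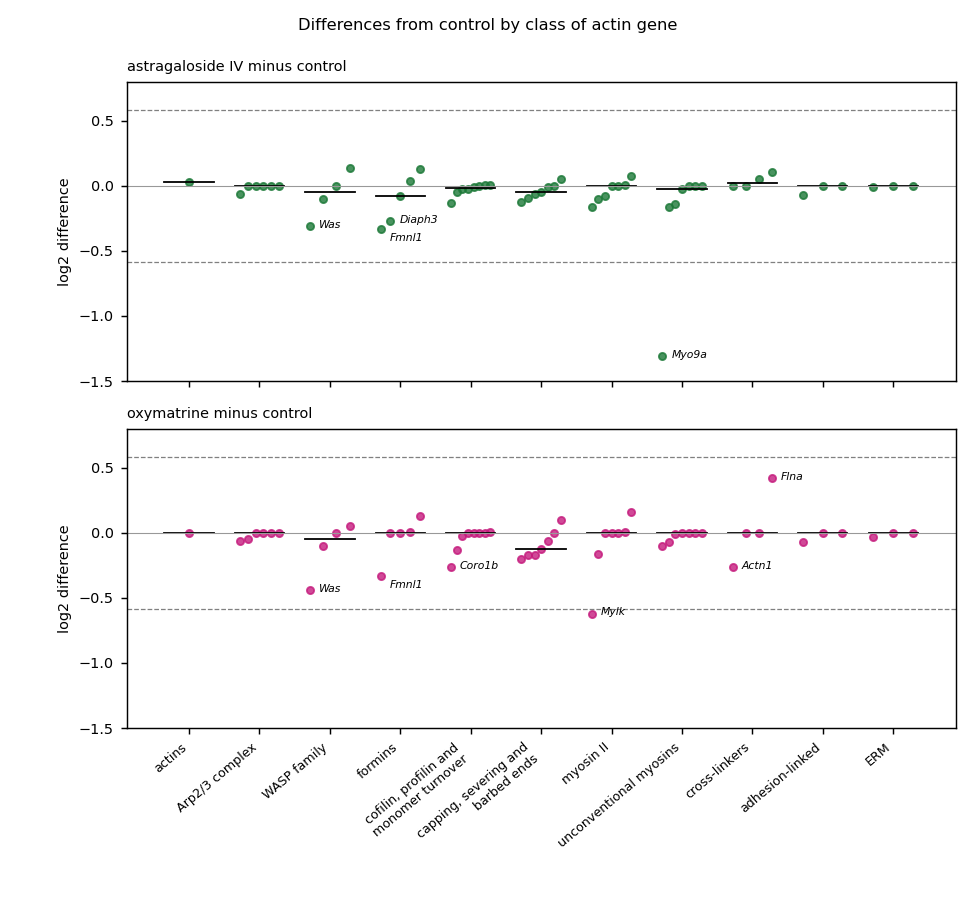
Log2 difference from control (y axis) for each gene by role, astragaloside IV above and oxymatrine below; points are single genes, black bars the class medians, dashed lines 1.5-fold. Myo9a lies at -1.31 in the upper panel and Mylk at -0.62 and Flna at 0.42 in the lower one, while the Arp2/3, adhesion-linked and ERM points lie within 0.07 of 0.

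The actin gene measured was Actb, the cytoplasmic beta-actin, at 18.92 in control cells, 18.95 after astragaloside IV and 18.92 after oxymatrine; its coding sequence is close to that of Actg1, so its probes may not separate the actins. The subunits of the Arp2/3 complex lay as close together. Arpc2, part of the core that holds the mother filament, was at 17.71 in all 3 arrays, and Arpc4, its partner in that core, at 15.22. Actr3, the actin-related subunit, differed most in this class, at 16.28, 16.23 and 16.23 in control, astragaloside IV and oxymatrine, an order kept for values given in threes. Arpc1b, the subunit of blood cells, was at 16.45 in each array, and Arpc1a at 10.09 in each. Arpc5 was at 15.11, 15.11 and 15.06. All 6 subunits therefore differed from control by 0.06 or less in size.

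Of the genes that switch on the complex, Was, the WASP gene of blood cells, was lower in both treated arrays, at 5.59, 5.28 and 5.15. Its values stand at the background level of 5.28, so its differences of -0.31 and -0.44 describe a probe set that hardly stands above genes taken as silent. They were -1.07 and -1.39 times the SD of the same difference among genes of similar level. This SD, from 20 level bins of equal size, measures the scatter of genes of like brightness between 2 arrays; it is no error of replication. Wasl, the broadly expressed relative of WASP, was at 10.69, 10.83 and 10.74. Wasf2, the WAVE protein of leukocytes that acts downstream of Rac, was at 13.82 in all 3 arrays. Wipf1, which binds and stabilises WASP, was at 11.19, 11.09 and 11.09, slightly lower in both treated arrays.

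Among formins, Fmnl1, the leukocyte formin, had the largest difference from control with either compound. It was at 12.64 in control cells, 12.31 after astragaloside IV and 12.31 after oxymatrine, a difference of -0.33 in each, or -2.53 and -2.10 times the SD among genes of similar level. Both treated values lay below the control value, which both differences share. Diaph1, the formin mDia1, went the other way by 0.13, at 10.68, 10.80 and 10.80. Diaph3, the formin mDia2, was at 6.87, 6.61 and 6.87. Its difference with astragaloside IV, -0.27, was close in size to that of Fmnl1 but -1.05 times the SD among genes of similar level. Fmnl2 was at 11.97, 12.01 and 11.97 and Diaph2 at 8.52, 8.45 and 8.53, both close to level across the arrays.

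The genes of monomer supply and filament disassembly were nearly identical in the 3 arrays. Cfl1, the main cofilin of non-muscle cells, was at 17.49, 17.48 and 17.49, and Pfn1, which feeds ATP-actin to growing ends, at 17.44 in each array. Tmsb4x, the monomer-binding thymosin beta-4, was at 18.72, 18.73 and 18.73. Limk1, the kinase that inactivates cofilin, was at 8.83, 8.81 and 8.83, and Cfl2, the muscle-type cofilin, at 9.52, 9.53 and 9.52. The coronins differed more. Coro1a, the coronin of leukocytes, was at 14.00, 13.88 and 13.88. Coro1b, which removes Arp2/3 from branches, was at 14.10, 14.05 and 13.84, lower with oxymatrine by a difference of -0.26, -2.05 times the SD among genes of similar level. Coro1c was at 14.00, 13.98 and 13.98.

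Genes of capping, severing and barbed ends were the class with the lowest median with oxymatrine, -0.12, where 5 of 7 were lower by more than 0.05 (36.5% of all genes) and 1 was higher (22.2%). Under centring on the median, quantile normalisation and lowess this median lay between -0.15 and -0.05, so its side did not change. With astragaloside IV the median was -0.05 and 4 of 7 were lower by more than 0.05 (30.8% of all genes), which became 2 of 7 after quantile normalisation or lowess. Capza1 and Capza2 encode the alpha subunits of capping protein and Capzb its beta subunit. Capza1 was at 14.54, 14.49 and 14.34 and Capza2 at 16.17, 16.11 and 16.11. Capzb was at 16.55, 16.55 and 16.65, higher with oxymatrine by 0.10, while both alpha subunits were lower there. Gsn, the calcium-activated severing protein gelsolin, was at 11.76, 11.66 and 11.58, and Capg, its capping relative of macrophages, at 12.16, 12.21 and 11.99. Vasp, which shields growing ends from capping, was at 12.07, 12.06 and 12.07, and its relative Evl at 9.52, 9.40 and 9.40. Capza1 with oxymatrine lay farthest from control in this class by that scale, at -1.55 times the SD among genes of similar level.

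In the myosin II class the heavy chains had equal values in the 3 arrays, the light chains differed from control by at most 0.16 in size, and the kinase gene Mylk differed by more than that with oxymatrine only. Myh9, the heavy chain of the main non-muscle myosin II, was at 15.57 in each array and Myh10, the neuronal and developmental heavy chain, at 6.09 in each. Myl6, the essential light chain, was at 14.88, 14.80 and 14.88. The regulatory light chain genes Myl12a and Myl12b, near-identical neighbours whose probes may not separate them, were at 15.33 in each array and at 15.46, 15.53 and 15.61. The Myl12b difference with oxymatrine, 0.16, was 1.37 times the SD among genes of similar level. Myl9, the smooth muscle light chain, was near background at 5.40, 5.24 and 5.24. Mylk, the calcium-calmodulin-dependent kinase that phosphorylates these light chains, was at 9.99 in control cells, 9.89 after astragaloside IV and 9.37 after oxymatrine. With astragaloside IV its difference, -0.10, lay between that of Myl9, -0.16, and that of Myl6, -0.08. The oxymatrine array was the low one, by a difference of -0.62 or 1.54-fold, -3.14 times the SD among genes of similar level. This difference lay close to the 1.5-fold threshold of 0.585, at -0.65 after centring on the median but at -0.56 after quantile normalisation and -0.58 after lowess, short of it.

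Most unconventional myosins were alike as well. Myo1g, the short-tailed myosin of blood cells, was at 16.84, 16.84 and 16.83. Myo1f, another leukocyte class I myosin, was at 11.15, 11.13 and 11.15, Myo1e at 11.45, 11.45 and 11.44, and Myo1c at 11.65 in each array. Myo5a, a cargo carrier, was at 12.12, 11.98 and 12.05. Myo9b, a myosin of leukocytes, was at 12.63, 12.47 and 12.53. Its close relative Myo9a was at 7.46 in control cells, 6.15 after astragaloside IV and 7.46 after oxymatrine. The astragaloside IV array alone was low, by a difference of -1.31 or 2.47-fold, -5.08 times the SD among genes of similar level. Over the scalings this difference ran from -1.31 to -1.26, and the treated value stayed above the background level. Myo9b differed from control by -0.16 with astragaloside IV, a smaller size than Myo9a, and by -0.10 with oxymatrine.

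Levels of markers of other cells are given beside these results because some of them differed between the arrays as well. The log2 of the summed linear level of 9 neutrophil markers was 13.45 in control cells, 12.95 after astragaloside IV and 13.21 after oxymatrine, carried by Lcn2 and Csf3r, as the other 7 were below background. The same measure over 8 T and NK cell markers was 10.02, 9.78 and 9.67, with 3 of 8 above background. Among those 3, Il2rb, a receptor chain for interleukins, was at 7.33, 6.32 and 6.48, Cd5 at 8.17, 7.73 and 7.73, and Gzmb at 8.99, 8.99 and 8.73. Over 7 markers of conventional dendritic cells of class 1 the summed level was 14.48, 14.38 and 14.43. The defining genes Xcr1 and Clec9a were below background. A summed linear level follows its brightest genes. The brightest here was Irf8, at 14.20, 14.09 and 14.19, which is also listed for plasmacytoid dendritic cells. Of the 5 class 1 markers above background, 4 were lower by any amount with astragaloside IV (40.8% of all genes), with a median of -0.11. With oxymatrine 5 were lower (46.0% of all genes), with a median of -0.24, Irf8 by a difference of -0.01 only. Beyond 0.05, 3 were lower with astragaloside IV (30.8% of all genes) and 4 with oxymatrine (36.5%). Itgae was at 6.50, 5.77 and 6.01. Of the lists that follow, only that of fibroblasts and endothelium was higher than control in both treated arrays. Those of monocytes and macrophages and of plasmacytoid dendritic cells were slightly lower in both. The remaining lists were lower with astragaloside IV and higher with oxymatrine. The summed level over 7 monocyte and macrophage markers was 15.74, 15.72 and 15.73, and over 8 of conventional dendritic cells of class 2 it was 15.93, 15.88 and 15.96. Over 5 B cell markers it was 10.51, 10.40 and 10.56, and over 8 of fibroblasts and endothelium 13.64, 13.72 and 13.76. Kdr, the brightest of those 8, was at 13.43, 13.52 and 13.57. Over 15 plasmacytoid dendritic cell markers the summed level was 16.68, 16.62 and 16.60. Their part in the lower Myo9a, Mylk and Fmnl1 values was not tested.

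Cross-linkers gave the clearest higher value. Flna, the filamin that joins actin filaments into orthogonal networks and links them to integrins, was at 14.81 in control cells, 14.92 after astragaloside IV and 15.23 after oxymatrine. Oxymatrine was the high array, by 0.42 or 1.34-fold, 3.73 times the SD among genes of similar level, and the value ran from 0.39 to 0.45 over the scalings. Actn1, an alpha-actinin of stress fibres and adhesions, was low in the same array, at 13.96, 14.01 and 13.70. Actn4 was at 14.64 in each array, and Lcp1, the leukocyte bundling protein L-plastin, at 17.62 in each. The 4 cross-linkers thus included the highest difference of the 55 genes with oxymatrine, 0.42, and 1 lower gene.

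The listed adhesion-linked and ERM genes, which link filaments to integrins and membrane, showed no sizeable difference. Tln1, the talin that activates integrins, was at 15.88 in each array and Vcl, which talin recruits under tension, at 9.84 in each. Zyx, a sensor of strained filaments, was at 10.21, 10.15 and 10.15. Of the ERM genes, Msn, the main one in leukocytes, was at 13.05 in each array, Rdx at 13.36 in each, and Ezr at 13.64, 13.63 and 13.61.

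**Figure D3:**
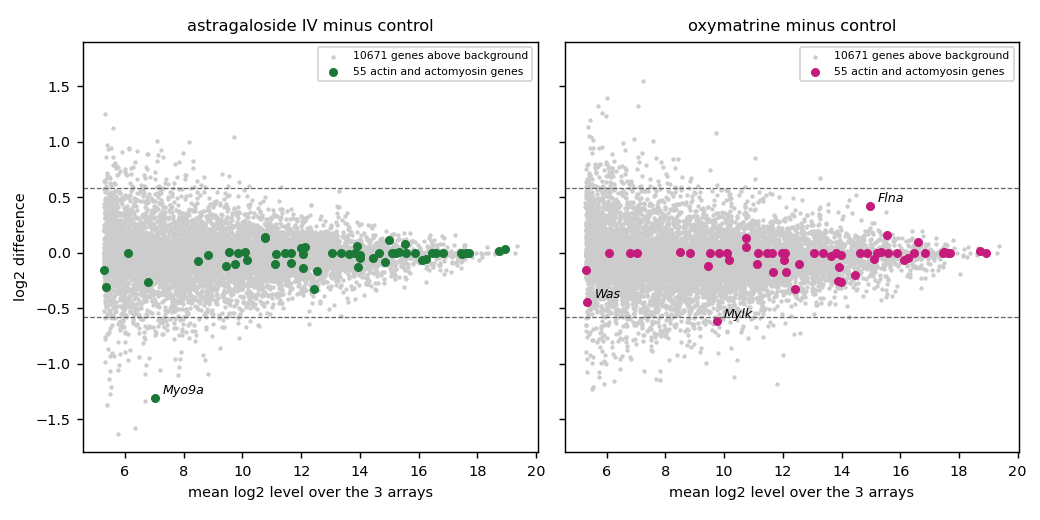
Log2 difference from control (y axis) against mean log2 level over the 3 arrays (x axis) for 10671 genes above background (grey) and the 55 actin and actomyosin genes (coloured), astragaloside IV left and oxymatrine right; dashed lines mark 1.5-fold. The grey cloud narrows as level rises; Myo9a at -1.31, Mylk at -0.62 and Flna at 0.42 lie toward the edge of the cloud at their level, and most coloured points lie along 0.

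The 55 genes had small ranges over the 3 arrays. The highest minus the lowest of a gene's 3 values had a median of 0.04 over the 55 genes and 0.14 over all genes above background. It was under 0.1 for 35 of 55 genes, or 63.6%, against 41.0% of all genes. Brightness goes with this: the SD among genes of similar level with astragaloside IV was 0.08 at the level of Actb and 0.29 at that of Was, and 48 of the 55 lay in the upper 10 of the 20 level bins. Weighted to the level bins of the 55 genes, the share over all genes was 50.8%, which lies between both shares. The 48 brighter genes had a median difference size of 0.01 with either compound, and the 7 dimmer ones of 0.16 with astragaloside IV and 0 with oxymatrine. Exact ties enter these values. With oxymatrine 4 of the 7 dimmer genes equalled control (24.4% of all genes), which sets their median at 0. The range was exactly 0 for 14 of the 55 genes (25.5%, against 13.6% of all genes). Such ties do not show that a transcript was unchanged.

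**Figure D4:**
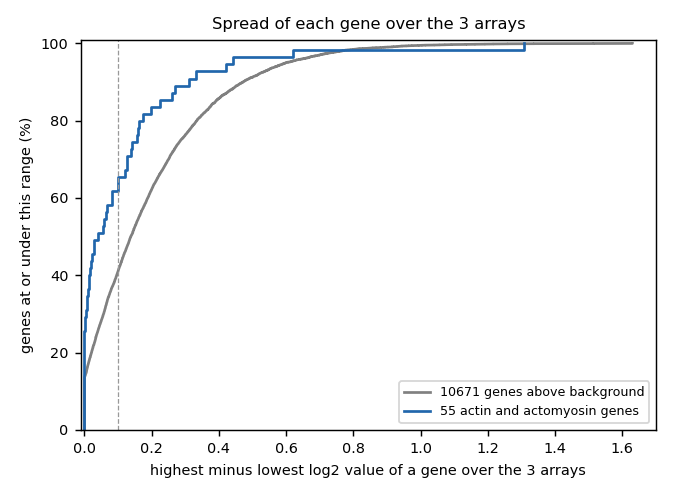
Cumulative share of genes (y axis, percent) at or under a given range over the 3 arrays (x axis, highest minus lowest log2 value), for 55 actin and actomyosin genes (blue) and 10671 genes above background (grey); the dashed line is a range of 0.1. At a range of 0.1 the blue curve has 63.6% of its genes below it and the grey one 41.0%; the blue curve ends at 1.31, the value of Myo9a.

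Between the treated arrays 1 of 55 genes, Myo9a, was 1.5-fold or more apart, beside 2.58% of all genes (1.46% lower and 1.12% higher with oxymatrine). Myo9a was higher with oxymatrine by 1.31, past 2-fold as were 0.159% of all genes. Below that size, Mylk differed by -0.52, Actn1 by -0.31, Flna by 0.31, Diaph3 by 0.27, Coro1b by -0.22 and Capg by -0.22, all given as oxymatrine minus astragaloside IV. Within 0.05 lay 37 of 55 genes, against 46.1% of all genes, and 9 were lower (30.4%) and 9 higher (23.4%) beyond that. By any amount 16 were lower (40.7%), 16 higher (32.5%) and 23 equal (26.7%). Doses are unknown, so these values compare 2 arrays and not the strength of the compounds.

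The genes around this machinery, 114 listed regulators and partners in 7 groups, had 107 named probe sets, of which 94 were above background. With astragaloside IV 39 of the 94 were lower by more than 0.05 (30.8% of all genes) and 10 higher (22.8%), and with oxymatrine 39 were lower (36.5%) and 16 higher (22.2%). The medians were -0.02 in both, against 0 for all genes. Quantile normalisation gave 31 lower (27.2%) and 15 higher (26.4%) with astragaloside IV and 29 lower (31.3%) and 24 higher (38.1%) with oxymatrine, so the balance shifted with scaling, as it did over all genes. At 1.5-fold stood 2 of 94 with astragaloside IV (2.13% of all genes) and 3 of 94 with oxymatrine (3.31%), all lower and again near the background share.

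Those genes were Tiam1, Marcksl1 and, with oxymatrine, Arhgef1. Tiam1, an exchange factor for Rac, was at 6.45 in control cells, 5.83 after astragaloside IV and 5.48 after oxymatrine, differences of -0.62 and -0.98. Marcksl1, an actin- and membrane-binding protein, was at 9.01, 8.40 and 8.20. After quantile normalisation its difference with astragaloside IV was -0.56, short of 1.5-fold. Arhgef1, an exchange factor that acts downstream of G protein-coupled receptors, was at 11.82, 11.55 and 11.16, a difference of -0.66 with oxymatrine, -4.12 times the SD among genes of similar level. In the same group Dock2, the Rac exchange factor of chemotaxis in lymphocytes and plasmacytoid dendritic cells, was at 13.12, 13.06 and 13.09, Dock8 at 14.77, 14.71 and 14.96, and Vav1 at 14.30, 14.26 and 14.22.

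In the WAVE and cortactin group the adaptor gene Nck2 differed by -0.30 and -0.47 and the WAVE subunit gene Nckap1 by -0.25 and -0.27, while Nckap1l, the blood-cell form of that subunit, was at 14.06, 14.06 and 14.21. Among other actin turnover genes Scin, a gelsolin relative, differed by -0.25 and -0.38 and the formin gene Fhod1 by 0.34 and -0.03. The other myosin genes with the largest sizes were Myo7a, with -0.11 and 0.31, and Myo18a, with -0.28 and -0.16. Ptk2b, the focal adhesion kinase relative Pyk2 that acts downstream of chemokine receptors, was at 9.66, 9.12 and 9.15. Nf2, of the same group of other cross-linkers and adaptors, was at 10.26, 9.74 and 9.81, differences of -0.52 and -0.45. Of the 15 genes above background in that group, 5 were lower by more than 0.05 with astragaloside IV (30.8% of all genes) and 2 higher (22.8%). With oxymatrine 6 were lower (36.5%) and 1 higher (22.2%). Fscn1, the filament bundler that marks mature dendritic cells, was at 18.36 in each array.

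Srf was at 12.17, 12.11 and 12.19, its actin-sensing cofactor Mrtfa at 12.17 in each array and Mrtfb at 11.89, 11.89 and 11.92, so none differed from control by more than 0.07. The ternary complex genes Elk1 and Elk3 differed by -0.25 and -0.25 and by -0.18 and -0.10. Elk4, of the same list, differed by 0.08 and -0.13. Of the 5 genes with a CArG box and a probe set, Vcl and Arpc4 had equal values in the 3 arrays and Myo1e differed by less than 0.01. Myl6 was lower with astragaloside IV by a difference of -0.08, and Myl9 in both treated arrays by -0.16.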

How the data were processed

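For each array the authors deposited 1 log2 value per probe set, computed with RMA, which by definition combines background subtraction, quantile normalisation and median polish, per the submitters' processing notes. Which software and genome build they used is not given in those notes. Base 2 fits the deposited range, 1.78 to 19.67. Of 28846 probe sets, 19572 had 1 gene symbol in the platform annotation of 2019, 0 several and 9274 none. All 55 Entrez identifiers of the actin genes were in the RefSeq table. Where probe sets shared a symbol, the brightest on average stood for the gene. Each comparison is a difference of 2 log2 values, with no test. The members and gene lists were chosen with earlier results of these data known. Named genes are those 1.5-fold apart, the largest differences of each class or group, and a fixed set. Actn1, Dock2, Dock8, Vav1, Nckap1l, Fscn1, Nf2, Elk4 and the remaining members were added to describe their classes or groups. The values of 1 group of pathway genes are not reported here. Alternatives were other level filters, a lower threshold and 2-fold, centring, quantile normalisation, lowess (fraction 0.3), the mean over probe sets or members, and a margin of 0.05. The calculations were tested on simulated data. Precision is limited by the number of arrays. The work used matplotlib 3.10.9, statsmodels 0.14.6, scipy 1.17.1, pandas 2.3.3, numpy 2.4.6 and Python 3.11.15.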

Additional observations from a re-analysis of the deposited data

How the results depend on the processing

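With 1 array per group, no replicate could be left out and none of the differences has a replicate error. No paired analysis was possible because each group has 1 array and no test was made. The count of 1.5-fold genes with oxymatrine against control went from 1 to 0 after quantile normalisation, after lowess and at 2-fold, and to 4 at the threshold set below 1.5-fold. At that lower threshold it was 2 with astragaloside IV against control and 2 between the treated arrays. The number of genes lower with oxymatrine by any amount went from 22 against control and 16 against astragaloside IV to 50 and 46 after centring on the median, where 74.6% and 72.9% of all genes were lower; the 24 and 23 equal genes and 4 and 7 higher ones crossed to the lower side. With a margin of 0.05 the latter was 9. The mean over the 55 genes with astragaloside IV against control was -0.056 where the median was 0. A further 56 recomputed counts and medians stayed within 1.5 times the count or 0.05 of the median. After lowess 22 genes were lower and 33 higher with astragaloside IV and 19 lower and 36 higher with oxymatrine, after quantile normalisation 21 and 29, and 19 and 32, against 25 and 12, and 22 and 9, as deposited. Myo9a, Mylk, Flna and Fmnl1 kept their side against control in each alternative wherever their deposited difference exceeded 0.05. Was and Myl9 failed the filter at the 99th percentile of receptor genes.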

Other observations

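Exactly equal deposited values were frequent and had no fixed partner. Among the 55 actin and actomyosin genes, 14 had equal values in all 3 arrays (25.5%, against 13.6% of all 10671 genes above background), among them Myh9, Tln1, Lcp1, Pfn1 and Wasf2. In 9 the treated arrays were equal and control stood apart (16.4% against 13.1%), among them Diaph1, Wipf1 and Zyx. In 10 control and oxymatrine were equal and astragaloside IV stood apart (18.2% against 10.7%), among them Myo9a and Actb, and in 4 control and astragaloside IV were equal (7.27% against 14.1%). Median polish over 3 arrays returns such ties where the probes' deviations centre on 0, so an equal value does not show that a transcript was unchanged, and an equal pair of treated values, as for Diaph1, does not show a shared response.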
